A study of Arabidopsis thaliana with 12 samples.

Results

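The quantity described here is the organ difference of the CLE3 induction effect in Arabidopsis thaliana seedlings: the shoot difference between estradiol and DMSO minus the same difference in roots. A positive organ difference means that estradiol minus DMSO was higher in shoots than in roots, and a negative one that it was lower in shoots. It was taken from 10 of the 12 arrays of the series and read among the 22124 of 38408 array features whose highest group mean reached a log2 value of 5. Of these features, 9076 stood for 1 named gene each.

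All seedlings carried an estradiol-inducible CLE3 transgene and were 7 days old. Their roots were exposed for 24 h to estradiol, at 5 mM as the labels give it, or to DMSO, the solvent control, and the organs were then harvested apart for one-colour Affymetrix whole-transcript arrays. The titles gave 4 groups of 3 arrays: root estradiol, root DMSO, shoot estradiol and shoot DMSO. There was no group without the transgene, so effects of CLE3 and of estradiol itself cannot be told apart. Whole organs were measured, in which fewer cells of a type and less RNA per cell cannot be told apart. No label states that replicates are separate cultures or plants. The p-values therefore cover the spread among these arrays, which could be technical.

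CLE genes encode small secreted peptides that are perceived by receptor kinases at the cell surface, such as CLV1 and the BAM receptors. The peptides adjust stem cell activity, vascular development and root growth, and some of them move from roots to shoots and act there. Only the roots were exposed here. A gene that responds in 1 organ, in opposite directions in both, or by different sizes in both appears in the organ difference. CLE3 itself was not analysed here, as no feature carried its name.

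The arrays labelled root DMSO replicate 3 and shoot estradiol replicate 3 had profiles of the other organ and were left out. Over 6 root marker genes (expansins of root hairs and genes of root ER bodies) the mean log2 level was 10.08 to 10.18 on the 5 root arrays kept and 5.72 to 6.18 on the 5 shoot arrays kept, and over 6 shoot marker genes of photosynthesis it was 6.26 to 7.02 in roots and 9.43 to 9.57 in shoots. The array labelled root DMSO replicate 3 had 5.96 and 9.50 for these means, and the array labelled shoot estradiol replicate 3 had 10.17 and 6.89. Each result was also computed on 12 arrays with these 2 labels exchanged, which gives 3 arrays a group. On 12 arrays the estimate of the organ difference is the same whether the 2 labels are kept or exchanged (largest difference 0), because both arrays enter it with the same sign. Only the spread differed: the median standard error among features of level 5 or more was 0.20 with labels exchanged, 0.36 with labels kept and 0.23 on the 10 arrays. Array medians lay between 4.99 and 5.09.

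The estradiol effect differed between the organs past the threshold for 1 feature, which had no gene name, and for no named gene. On the 10 arrays this was 1 of 38408 features (0.0026%) at a limma adjusted p under 0.05, and 1828 features (4.76%) had an unadjusted p under 0.05. Among the 22124 features of level 5 or more, 665 (3.01%) had an unadjusted p under 0.05. Among the 9076 named genes of that level, 230 (2.53%) had an unadjusted p under 0.05, of which 128 lay above 0 and 102 below. With the labels exchanged 1 feature (0.0026%) again passed, and 1802 (4.69%) had an unadjusted p under 0.05. On the 12 arrays as labelled no feature passed in limma, and 799 (2.08%) had an unadjusted p under 0.05. The 95% interval of the organ difference reached a median of 0.52 on either side among features of level 5 or more. This interval covers 1 feature at a time, and the adjustment over 38408 features asks for larger differences.

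The unnamed feature that passed was high in estradiol-treated roots and in no other group. Its log2 values were 12.30, 12.28 and 11.94 in root estradiol, 6.83 and 7.35 in root DMSO, 5.60 and 4.73 in shoot estradiol, and 5.05, 5.16 and 5.58 in shoot DMSO. The root groups did not overlap, and the shoot groups did. The root difference was 5.08 (SE 0.29), the shoot difference was -0.10 (SE 0.29), and the organ difference was -5.19 (SE 0.41, limma adjusted p 0.0294). The left-out array labelled shoot estradiol replicate 3 had 7.35, within the range of the root DMSO arrays, and the array labelled root DMSO replicate 3 had 5.76, above the 5 shoot arrays.

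With the 2 labels exchanged, the organ difference of this feature was -4.90 (SE 0.38, limma adjusted p 0.00337), and it passed without each of the 12 arrays in turn. On the 10 arrays the call was kept without shoot estradiol replicate 1 and without root estradiol replicate 3 and was lost without each of the other 8 arrays, with organ differences of -5.62 to -4.75 and limma adjusted p of 0.0238 to 0.232. On the 12 arrays as labelled it was lost (SE 0.84, limma adjusted p 0.719). With a term for the replicate number on the 10 arrays the call was lost as well (SE 0.51, limma adjusted p 0.759).

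The named genes whose levels followed this feature most closely over the 10 arrays were nad1, a mitochondrial gene for a subunit of respiratory complex I, with a Pearson correlation of 0.952, AT1G72240 with 0.936 and Hop2, a gene named for homologous pairing in meiosis, with 0.931. The feature and these genes were highest in root estradiol and higher in root DMSO than in shoots, so organ and treatment both enter the correlations. Hop2 had 8.11, 8.08 and 8.03 in root estradiol, 7.88 and 7.89 in root DMSO and 7.51 to 7.64 in shoots. For nad1 the values were 12.90, 12.96 and 12.95, then 12.72 and 12.69, and 12.46 to 12.58. The correlations are a description. Of these genes AT1G72240 had the widest organ difference: its log2 values were 6.49, 6.10 and 5.82 in root estradiol and 5.43 and 5.58 in root DMSO, and 4.69 and 4.69 in shoot estradiol and 4.98, 4.92 and 4.99 in shoot DMSO. Neither organ's groups overlapped. Its organ difference was -0.91 (limma adjusted p 0.853) and did not pass the test.

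Responses in opposite directions were rare among features of level 5 or more. A feature was counted as opposite when estradiol and DMSO arrays did not overlap in either organ and the differences had opposite signs and a size of at least 0.4 in each. This held for 32 of 22124 features (0.145%), of which 7 were higher in roots and lower in shoots with estradiol and 25 were lower in roots and higher in shoots. Of these features, 4 of the 7 and 18 of the 25 had a level under 5 in at least 1 organ and passed the level limit through the other. Several features had identical values on every array, and the 25 features came down to 19 distinct profiles. Without the size limit, 308 features (1.39%) had non-overlapping arrays and opposite directions, and 739 (3.34%) had non-overlapping arrays and the same direction in both organs. With the labels exchanged, 16 features were opposite, and 10 of them were among the 32. That set has 3 arrays in every group, so a lack of overlap is harder to reach by construction, here and in the classes below.

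**Figure D1:**
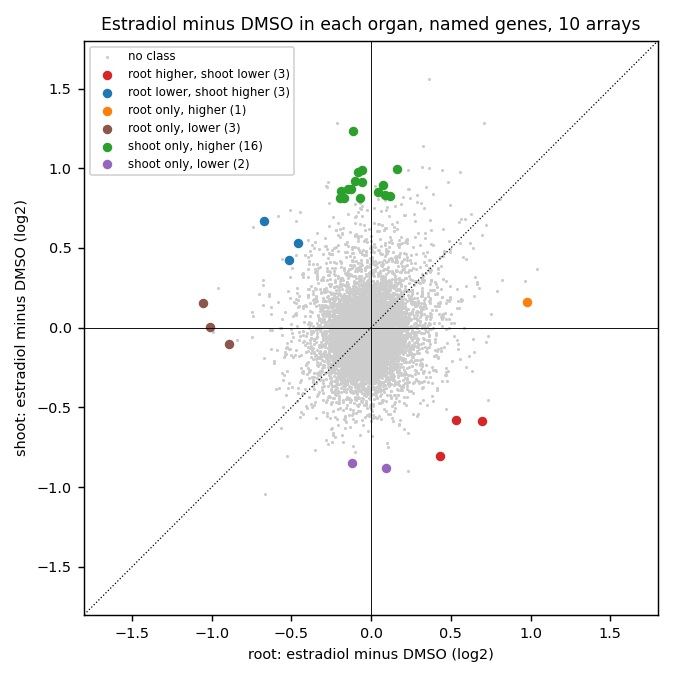
Each point is 1 of 9076 named genes of level 5 or more, with estradiol minus DMSO (log2) in roots on the horizontal axis and in shoots on the vertical axis, from the 10 arrays. Colours mark the 28 genes with an opposite or one-organ response, 16 of them higher in shoots alone. The dotted line marks an organ difference of 0.

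Of the opposite responses, feature 13482439 had the smallest p. It has no gene name and was singled out after its values were seen. Its log2 values were 5.90, 6.11 and 5.99 in root estradiol and 4.76 and 4.72 in root DMSO, and 3.83 and 4.18 in shoot estradiol and 5.84, 5.00 and 5.72 in shoot DMSO. Estradiol arrays were the higher ones in roots and the lower ones in shoots, with no overlap in either organ. The root difference was 1.26 (SE 0.24), the shoot difference -1.52 (SE 0.24) and the organ difference -2.78 (SE 0.34), which did not pass the test (limma adjusted p 0.481). With the labels exchanged it was -2.55 (SE 0.31, limma adjusted p 0.0604). It passed when that fit was limited to features of level 5 or more, an alternative chosen after seeing the data (limma adjusted p 0.0414). The left-out arrays labelled root DMSO replicate 3 and shoot estradiol replicate 3 had 4.44 and 4.99.

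Of the named genes, 3 were higher in roots and lower in shoots with estradiol. AT4G16240 had log2 values of 4.96, 4.73 and 4.93 in root estradiol and 4.19 and 4.49 in root DMSO, and 5.79 and 6.03 in shoot estradiol and 6.59, 6.27 and 6.60 in shoot DMSO. Its level was higher in shoots than in roots in both treatments, and the estradiol arrays of the organs lay closer together than the DMSO arrays. This gene passed the level limit through shoots alone, and its root values were all under 5. The organ difference was -1.11 (SE 0.23, limma adjusted p 0.551), the lowest p of any named gene in this direction, and -1.01 (SE 0.20) with the labels exchanged. AT4G08410 had 6.57, 6.56 and 7.26 in root estradiol against 6.18 and 6.02 in root DMSO, and 3.10 and 2.70 in shoot estradiol against 3.10, 3.86 and 3.50 in shoot DMSO. The lowest shoot DMSO array equalled the higher shoot estradiol array to 2 decimals, and the levels in shoots were low. AT1G24996 had 5.92, 6.16 and 5.87 in root estradiol against 5.83 and 5.27 in root DMSO, and 5.33 and 6.15 in shoot estradiol against 6.76, 6.62 and 6.27 in shoot DMSO. The organ differences of these 2 genes were -1.28 (SE 0.39) and -1.24 (SE 0.39), each with a limma adjusted p of 0.915.

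The opposite pattern, lower in roots and higher in shoots, was found in PRXCA, AT5G11570 and AT1G27420. PRXCA encodes a class III peroxidase, an enzyme of the cell wall. Its log2 values were 1.51 on each of the 3 root estradiol arrays and 1.86 and 2.07 in root DMSO, near the bottom of the scale, and 5.58 and 5.63 in shoot estradiol against 5.30, 5.51 and 4.43 in shoot DMSO. This gave an organ difference of 0.99 (SE 0.39, limma adjusted p 1.00). PRXCA passed the level limit through shoots alone, and its root difference rests on values at the bottom of the scale. AT5G11570 had 4.23, 4.43 and 4.92 in root estradiol against 5.16 and 5.24 in root DMSO, and 4.31 and 3.998 in shoot estradiol against 3.73, 3.29 and 3.43 in shoot DMSO. AT1G27420 had 5.52, 5.78 and 5.90 in root estradiol against 6.21 and 6.28 in root DMSO, and 4.78 and 5.27 in shoot estradiol against 4.71, 4.47 and 4.62 in shoot DMSO. AT5G11570 passed the level limit through root DMSO alone, and its shoot means were under 5 in both treatments. The root arrays of AT5G11570 and AT1G27420 were the higher ones under DMSO, and the organs drew closer with estradiol. Their organ differences were 1.34 (SE 0.31) and 0.94 (SE 0.25), each with a limma adjusted p of 0.853. With the labels exchanged, AT4G16240 was the 1 of the 6 named opposite genes that stayed in its class, and all 6 kept the sign of the organ difference. In that set the class asks for more arrays without overlap.

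**Figure D2:**
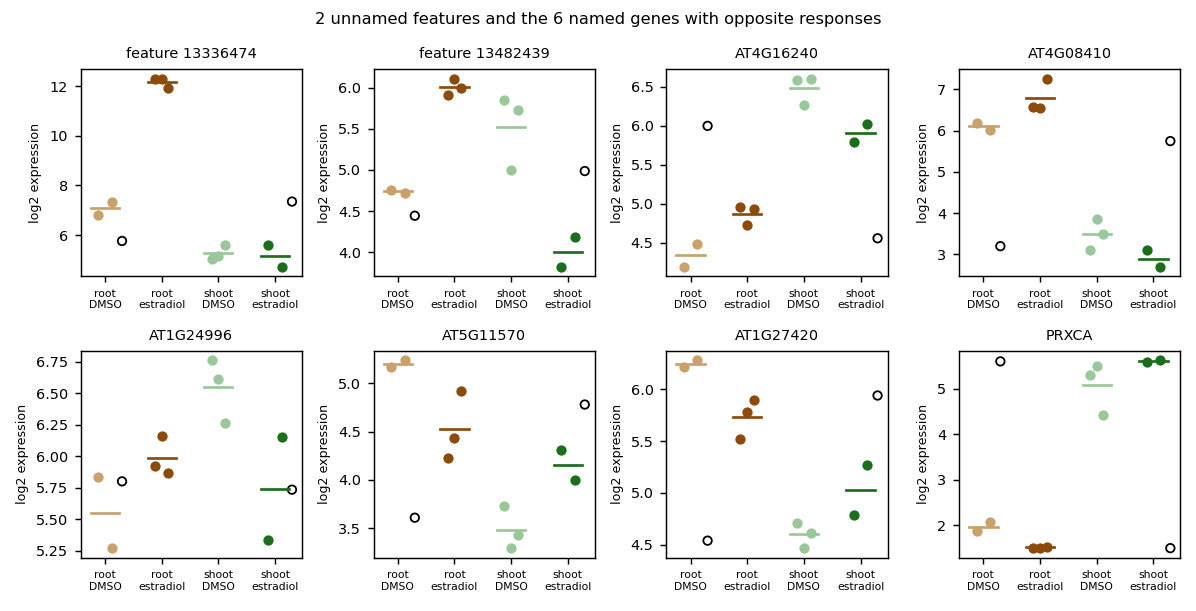
Log2 expression on every array of the unnamed feature past the threshold (first panel), of feature 13482439 and of the 6 named genes with opposite responses, by group. Filled points are the 10 arrays used, lines are group means over 2 or 3 arrays, and open circles are the 2 left-out arrays in the group of their label. The open circles of AT4G16240, AT4G08410, AT5G11570, AT1G27420 and PRXCA lie near the levels of the other organ.

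Responses in 1 organ alone were counted where the arrays did not overlap and differed by at least 0.8 in that organ while the difference in the other organ was under 0.2. This held for 123 of 22124 features (0.556%). In roots alone 10 features were higher and 22 lower with estradiol, and in shoots alone 58 were higher and 33 lower. Of these, 4 of 10, 11 of 22, 14 of 58 and 5 of 33 had group means under 5 in the organ that differed and passed the level limit through the other organ. In the same order, these classes held 10, 16, 35 and 17 distinct profiles, because some features had identical values. Among the 9076 named genes, 28 (0.309%) had an opposite or one-organ response, and 16 of the 28 were higher in shoots alone. None of the 28 passed the test of the organ difference. The gene lists held 1 of the 28, PRXCA.

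In roots alone, AT4G37560 was higher with estradiol, with log2 values of 3.95, 4.07 and 4.26 against 3.07 and 3.16 in root DMSO. In shoots it had 6.02 and 5.99 with estradiol and 5.87, 5.92 and 5.76 with DMSO, also without overlap but with a difference of 0.16. The gene passed the level limit through shoots alone, and its root values are all under 5. Its root difference was 0.98 and its organ difference -0.82 (SE 0.18, limma adjusted p 0.754). The unnamed feature past the threshold belonged to this class as well.

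Lower in roots alone were AT1G73120, AT3G46270 and AT1G14550, each with a higher level in roots than in shoots under DMSO. AT1G73120 and AT3G46270 passed the level limit through root DMSO alone. The shoot means of both, and those of AT1G14550, were under 5 in both treatments. AT3G46270 had 4.91, 4.75 and 4.87 in root estradiol against 6.02 and 5.69 in root DMSO, and 3.07 and 2.67 in shoot estradiol against 2.58, 2.81 and 3.21 in shoot DMSO. The shoot values overlapped and gave a difference of 0.00. The organ differences were 1.21 (SE 0.35; 0.79 with the labels exchanged) for AT1G73120, 1.01 (SE 0.30) for AT3G46270 and 0.79 (SE 0.37) for AT1G14550, with limma adjusted p of 0.856, 0.856 and 1.00.

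The 16 named genes higher in shoots alone had organ differences of 0.70 to 1.35, and 8 of them stayed in this class with the labels exchanged. AT3G07350 had log2 values of 5.90 and 5.90 in shoot estradiol against 5.02, 4.85 and 4.88 in shoot DMSO, and 5.69, 5.11 and 5.00 in root estradiol against 5.37 and 5.28 in root DMSO. The shoot arrays did not overlap, and the root DMSO arrays lay inside the range of root estradiol. Its organ difference was 1.05 (SE 0.28, limma adjusted p 0.853). AT3G50130 had 4.65 and 4.43 in shoot estradiol against 3.29, 3.15 and 3.47 in shoot DMSO, AT5G19230 had 5.29 and 6.10 against 4.71, 4.93 and 4.46, and AT3G15630 had 7.93 and 7.10 against 6.85, 6.56 and 6.18. Their organ differences were 1.35 (SE 0.38), 0.83 (SE 0.35) and 1.06 (SE 0.42). The remaining 12 genes were AT1G02610, AT1G55440, AT3G15450, AT3G46500, AT3G59480, AT4G32480, AT5G14020, AT5G19120, AT5G21940, AT5G54030, AT5G55110 and AT5G59930.

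Of these 16 genes, 11 had a root DMSO level at least 1 above their shoot DMSO level, and 8 stayed under 5 in shoots. The root marker mean was 5.96 and 6.18 on the shoot estradiol arrays and 5.72 to 6.08 on the shoot DMSO arrays. The 2 groups overlapped in this mean, and 3 of the 6 markers had a positive and 3 a negative shoot difference, with a median of -0.05. The largest shoot differences were those of EXPA18 with 0.74 and BGLU21 with 0.60. With the labels exchanged EXPA18 had 0.73 and BGLU21 0.16. BGLU21, a root beta-glucosidase, had 3.71 and 4.47 in shoot estradiol and 2.89, 3.87 and 3.72 in shoot DMSO, far under its root values of 10.30, 10.39 and 10.21 with estradiol. The part of root RNA in the shoot values was not tested.

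Lower in shoots alone were AT1G77885 and AT4G28940, both of which had higher levels in roots. AT1G77885 had log2 values of 3.33 and 3.65 in shoot estradiol against 4.37, 4.19 and 4.55 in shoot DMSO, and 6.59, 6.57 and 6.39 in root estradiol against 6.51 and 6.34 in root DMSO. The resulting organ difference was -0.98 (SE 0.22, limma adjusted p 0.853). AT4G28940 had 3.03 and 2.89 in shoot estradiol against 4.11, 3.53 and 3.79 in shoot DMSO, with an organ difference of -0.73 (SE 0.26), which was -0.39 with the labels exchanged. Both genes passed the level limit through roots alone, and all their shoot values are under 5. Neither gene stayed in this class with the labels exchanged.

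**Figure D3:**
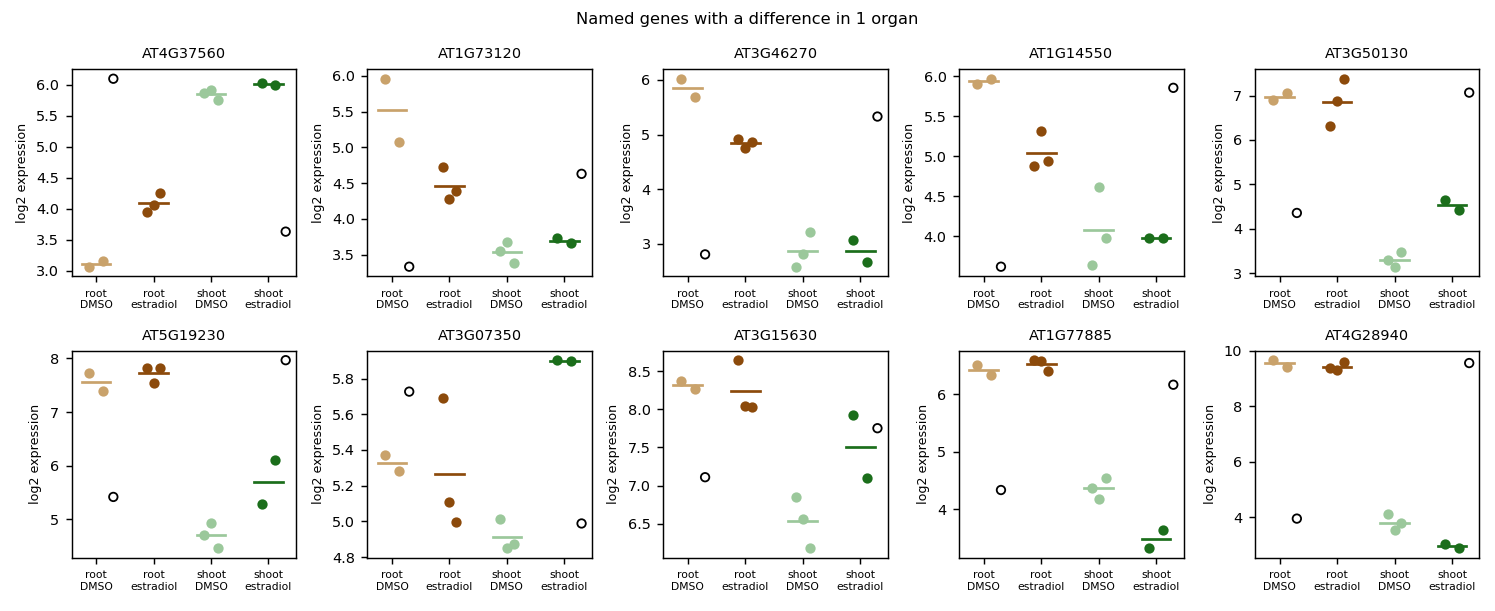
Log2 expression on every array of 10 named genes with a difference in 1 organ, by group. Filled points are the 10 arrays used, lines are group means over 2 or 3 arrays, and open circles are the 2 left-out arrays in the group of their label. AT4G37560 is higher and AT1G73120, AT3G46270 and AT1G14550 are lower in roots with estradiol. AT3G50130, AT5G19230, AT3G07350 and AT3G15630 are higher and AT1G77885 and AT4G28940 lower in shoots.

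The remaining genes with the smallest p-values belonged to no class. Above 0 lay AT3G19660 with an organ difference of 0.87 (SE 0.19), AT5G60680 with 0.63 (SE 0.16), AT2G38500 with 0.79 (SE 0.20), AT4G27450 with 0.63 (SE 0.16) and AT2G25200 with 0.77 (SE 0.20). AT4G27450 is well measured in both organs: its values were 8.42 and 8.50 in shoot estradiol against 7.81, 7.98 and 7.87 in shoot DMSO, and 7.96, 7.97 and 8.15 in root estradiol against 8.08 and 8.09 in root DMSO. The shoot arrays did not overlap and the root arrays did. Below 0 lay AT5G42670 with -0.84 (SE 0.21), AT2G04235 with -0.90 (SE 0.23), AT5G01570 with -0.79 (SE 0.20), AT5G53150 with -0.59 (SE 0.15) and GPDHC1 with -0.58 (SE 0.16). GPDHC1, a glycerol-3-phosphate dehydrogenase, had 6.51, 6.48 and 6.52 in root estradiol against 6.20 and 6.32 in root DMSO, and 6.06 and 6.10 in shoot estradiol against 6.34, 6.39 and 6.52 in shoot DMSO, without overlap in either organ. With the labels exchanged its organ difference was -0.26 (SE 0.24). The limma adjusted p was 0.772 for AT3G19660 and 0.853 for the other 9 genes. Some of these genes passed the level limit through 1 organ alone. AT3G19660 and AT2G38500 had shoot means under 5 in both treatments. AT2G25200, AT5G42670, AT2G04235 and AT5G01570 had root means under 5 in both treatments.

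Large organ differences were mostly those of genes that were dim in 1 organ. An organ difference of at least 0.5 in size was seen for 493 of 9076 named genes (5.43%), of which 302 lay above 0 and 191 below. Of these 493 genes, 68.4% had a level under 5 in 1 organ, against 23.1% of all named genes. A size of at least 1 was reached by 27 genes (0.297%), 22 above and 5 below, and the largest was 1.497. With the labels exchanged 329 genes reached 0.5, of which 254 were shared with the same sign, and 12 reached 1, of which 11 were shared.

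Of the 22 gene lists of function with at least 5 members of level 5 or more, none held a member past the threshold, and list medians of the organ difference lay between -0.19 and 0.15. The lists of organ markers, which overlap these, had medians of -0.21 over 6 root markers and -0.20 over 5 shoot markers, and 0.02 for each with the labels exchanged. Over all named genes 4330 lay above 0 and 4746 below, with a median of -0.01, and the root and shoot differences had opposite signs for 4070 (44.8%). The counts and medians of lists are descriptions to be read beside these.

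Among CLE peptides and their receptors and processing enzymes, 9 members were measured, 7 below 0 and 2 above, with a median of -0.08 (-0.12 with the labels exchanged). CLE26, a peptide gene known for effects on root and vascular development, had log2 values of 4.90, 4.89 and 5.17 in root estradiol against 4.74 and 4.70 in root DMSO, and 5.18 and 5.42 in shoot estradiol against 5.74, 5.87 and 5.32 in shoot DMSO. The shoot groups overlapped. Its organ difference was -0.61 (SE 0.26, limma adjusted p 1.00), and CLE16 had 0.35 (SE 0.24). Of 7 other signalling peptide genes 4 lay above 0, with IDL3, a gene like the abscission peptide IDA, at 0.35 (SE 0.28) and RALFL32, of the RALF peptides, at -0.30 (SE 0.19). Of 7 defensin-like genes 4 lay above 0, with LCR39 at 0.61 (SE 0.40) and LCR69 at 0.26 (SE 0.29).

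Of 9 auxin genes 6 lay above 0, with a median of 0.07. LBD16, a transcription factor of lateral root formation, had 6.75, 6.84 and 7.10 in root estradiol against 7.02 and 7.09 in root DMSO, and 3.78 and 3.88 in shoot estradiol against 3.29, 3.61 and 3.57 in shoot DMSO. GH3.1, of a family that conjugates auxin to amino acids, had 6.52, 6.65 and 6.49 against 6.74 and 6.62 in roots and 4.27 and 4.19 against 3.97, 3.68 and 4.05 in shoots. Both genes had shoot arrays without overlap at low levels and overlapping root arrays. Their organ differences were 0.49 (SE 0.21) and 0.45 (SE 0.20), each with a limma adjusted p of 1.00.

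Of 8 genes of abscisic acid, cold and drought 4 lay above 0 and 4 below. STZ (ZAT10), a zinc finger repressor of stress responses, had higher means with estradiol in both organs, with 8.44, 7.80 and 7.27 against 6.94 and 7.31 in roots and 7.18 and 6.37 against 5.94, 5.41 and 5.12 in shoots. The root groups overlapped, and the organ difference was 0.57 (SE 0.55). COR27, a cold-regulated gene of the circadian clock, had 0.41 (SE 0.23). Of 8 defence genes 7 lay above 0 with a median of 0.15, which was 0.03 with the labels exchanged. The WRKY transcription factors WRKY22 and WRKY6 had 0.30 (SE 0.21) and 0.24 (SE 0.16). WRKY22 was higher with estradiol without overlap in both organs, with differences of 0.23 in roots and 0.53 in shoots. WRKY6 had differences of -0.15 in roots and 0.09 in shoots, also without overlap.

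Of the 63 chloroplast genome genes 61 lay below 0, with a median organ difference of -0.15, a median root difference of 0.15 and a median shoot difference of 0.00. Their organ differences ran from -0.43 to 0.04, and the smallest unadjusted p was 0.0771. The median log2 level of the list was 11.01, 11.11 and 11.51 on the root estradiol arrays, 10.97 and 11.08 on the root DMSO arrays and 12.46 to 12.53 on the shoot arrays. Root estradiol replicate 3 stood above the other 4 root arrays, and without it the list median was -0.06. The left-out array labelled shoot estradiol replicate 3 had 11.44, and with the labels exchanged the list median was -0.03, with 41 of 63 genes below 0. The cause of the shift was not tested. atpI, a subunit of the plastid ATP synthase, had -0.43 (SE 0.22), and psbN, a photosystem II assembly gene, had -0.38 (SE 0.27).

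Of the 10 nuclear photosynthesis genes 9 lay below 0, with a median of -0.19. Their median level was 7.27, 7.79 and 7.96 in root estradiol and 7.44 and 7.61 in root DMSO, which overlapped, and it was 7.91 on the left-out array labelled shoot estradiol replicate 3. The list median was -0.0048 without root estradiol replicate 3 and -0.03 with the labels exchanged. LHCB4.2, an antenna protein of photosystem II, had 5.93, 5.71 and 6.48 in root estradiol against 5.71 and 5.48 in root DMSO and an organ difference of -0.36 (SE 0.31). PRK, phosphoribulokinase of the Calvin cycle, was the 1 member above 0 with 0.35 (SE 0.42). Of 7 genes of chlorophyll synthesis and plastid function 4 lay above 0, with HEMA2, of tetrapyrrole synthesis, at 0.36 (SE 0.27) and PIF7, a light-signalling factor, at -0.19 (SE 0.34).

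**Figure D4:**
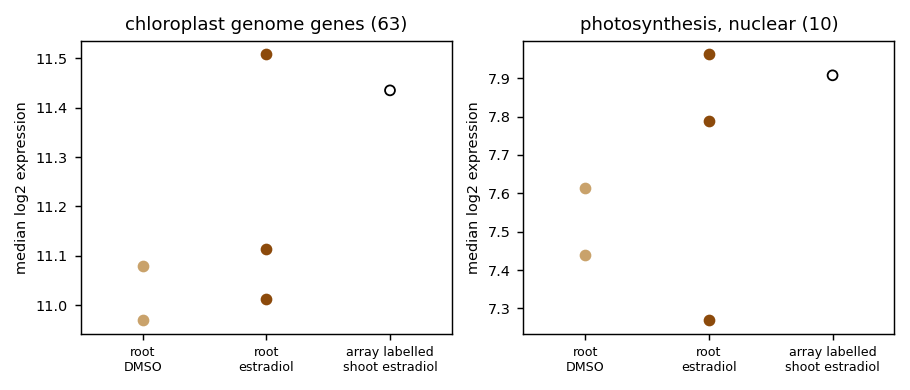
Median log2 expression of 63 chloroplast genome genes (left) and of 10 nuclear photosynthesis genes (right) on the root arrays, 1 point an array. The open circle is the left-out array labelled shoot estradiol replicate 3, whose profile is that of roots. The highest root estradiol point is replicate 3 in both panels, at 11.51 and 7.96.

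Of 7 genes of glucosinolate and ER body function, which serve in defence, 6 lay below 0 with a median of -0.17 (-0.04 with the labels exchanged). NAI2, an ER body protein, had -0.22 (SE 0.19), and the lectin JAL22 had -0.40 (SE 0.28). In shoots the list's median level was 6.85 and 7.55 with estradiol and 7.42, 7.57 and 7.67 with DMSO, under the levels of 9.37 to 9.61 on the root arrays. Of 22 redox and peroxidase genes 14 lay above 0 with a median of 0.04, and PRXCA and AT5G64120 had the widest differences, 0.99 (SE 0.39) and 0.71 (SE 0.64).

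Cell wall lists showed no common direction. Of 17 expansin and xyloglucan genes 8 lay above 0 and 9 below. The root hair expansin EXPA18 had 0.81 (SE 0.78), with shoot values of 4.20 and 3.21 with estradiol and 3.91, 1.74 and 3.24 with DMSO that overlapped, and EXLA2 had 0.49 (SE 0.39), which turned to -0.053 with the labels exchanged. Of 8 cellulose synthase family and related genes 4 lay above 0. IRX15-L, which acts in xylan synthesis, had 7.52, 7.58 and 7.81 in root estradiol against 7.33 and 7.31 in root DMSO, and 4.96 and 5.31 in shoot estradiol against 5.44, 5.32 and 5.37 in shoot DMSO, without overlap in either organ. For this gene the organ difference was -0.56 (SE 0.20, limma adjusted p 1.00) and -0.60 (SE 0.17) with the labels exchanged. CSLD2, a cellulose synthase-like gene of root hairs, had 0.47 (SE 0.23). Of 40 glycosidase and carboxypeptidase genes 16 lay above 0 and 24 below, from scpl16 at -0.80 (SE 0.46) to GH9B17 at 0.87 (SE 0.45).

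Of 7 cytochrome P450 genes 4 lay above 0, and the median of 0.00 became 0.21 with the labels exchanged. CYP71B29 had 7.88, 7.81 and 7.93 in root estradiol against 8.22 and 8.25 in root DMSO, without overlap, and overlapping shoot arrays, with an organ difference of 0.54 (SE 0.20), and CYP71B23 had 0.45 (SE 0.28). The 30 UDP-glycosyltransferases, which attach sugars to small molecules, were split 15 to 15, with UGT76E11 at -0.80 (SE 0.32; -0.35 with the labels exchanged) and UGT71C1 at 0.70 (SE 0.59). Of 5 sugar transport genes 4 lay above 0, with the sucrose exporter SWEET11 at 0.64 (SE 0.39) and SWEET2 at 0.23 (SE 0.22). Of 7 aquaporin and ion channel genes, 6 of them glutamate receptor-like, 5 lay below 0, with GLR2.2 at 0.33 (SE 0.37) and GLR3.3 at -0.10 (SE 0.20), both of which turned sign with the labels exchanged, to -0.40 and 0.0053.

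The lists of basic cell functions stayed near 0. Of 44 genes of ubiquitin, proteasome and autophagy 20 lay above 0, with a median of -0.01, and UBC36, a ubiquitin-conjugating enzyme, had 0.61 (SE 0.26) and ATG8E, an autophagosome protein, 0.59 (SE 0.29). Of 24 chromatin, RNA polymerase and Mediator genes 11 lay above 0, from CHR17 at -0.37 (SE 0.22) to MED21 at 0.25 (SE 0.22). Of 28 transcription factor genes of several families 11 lay above 0 with a median of -0.08, with BZIP17, a stress factor of the ER membrane, at -0.58 (SE 0.31) and AGL65, a MADS-box gene, at 0.48 (SE 0.24). Of 6 histone and cell cycle genes 2 lay above 0, with HTR12, the centromeric histone H3, at -0.17 (SE 0.19) and the linker histone HON4 at 0.11 (SE 0.20), which turned to -0.011 with the labels exchanged.

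The exchange of labels also moved other list members by more than 1.5 times without turning their sign. Toward 0 went IDL3 to 0.11, COR27 to 0.23, WRKY22 to 0.18, LHCB4.2 to -0.089, JAL22 to -0.13 and NAI2 to -0.015. In the same way CYP71B29 went to 0.35, CYP71B23 to 0.21, UBC36 to 0.38 and AGL65 to 0.24. The root marker BGLU21 went from 0.73 to 0.33.

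**Figure D5:**
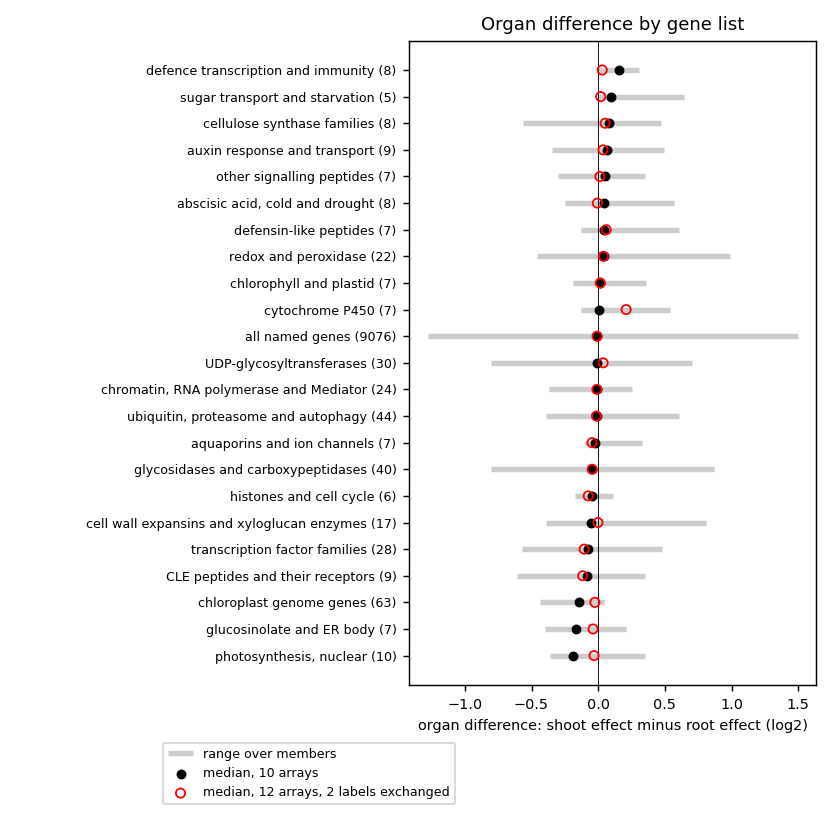
Organ difference (shoot effect minus root effect, log2) of 22 gene lists of function and of all 9076 named genes, without the organ marker lists, with the number of members of level 5 or more in brackets. Grey bars run from the lowest to the highest member, black points are medians on the 10 arrays and red circles are medians with the 2 labels exchanged. Medians lie between -0.19 and 0.15 on the 10 arrays, and the 4 plotted lists farthest from 0 lie nearer to 0 with the labels exchanged.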

How the data were processed

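Values were 1 per feature and array in the table deposited by the authors. Per the submitters' processing notes, the software was Affymetrix Expression Console 1.3; its settings were not given in the sources used here. No label states the scale, and the range of the deposited values led to their use as log2 expression. Names came from the platform annotation and were brought up to date through the RefSeq genes of assembly TAIR10.1. Of 38408 features 16722 had 1 gene (16574 matched the table), 759 had several and 20927 stayed unnamed. Of several features of a gene, the one with the highest mean was used. Groups and replicate numbers came from the titles. The source name field gave 1 treatment per organ, against the titles, and was not used.

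limma 3.58.1 (R 4.3.3) was used to fit 4 group means to the 10 arrays with lmFit, and the interaction was tested two-sided after eBayes without a trend. Benjamini-Hochberg adjustment covered all 38408 features, at a threshold of 0.05. The fit was tested on simulated data. Named genes were those past the threshold, the 8 smallest p-values in each direction, up to 5 per opposite class, up to 4 per one-organ class and the 2 widest organ differences in each list with at least 5 members, and 3 genes were taken by correlation with the feature past the threshold. The members, lists and class limits were chosen with earlier results of these data known. The number of arrays limits the precision. Alternatives were the exchanged labels, the labels as given, a replicate block, filters, an intensity trend, array weights, quantile normalization, centring, single-gene features and the omission of each array. The combination of exchanged labels and a filter was chosen after seeing the data.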

Additional observations from a re-analysis of the deposited data

Results flagged for a closer look

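The unnamed feature past the threshold was the 1 result whose estradiol effect differed between the organs by the test of the difference itself. Its organ difference was -5.19 on the 10 arrays (limma adjusted p 0.0294), with the 3 root estradiol arrays at 11.94 to 12.30 and every other array used at 7.35 or lower. The call was lost on the 12 arrays as labelled and without each of 8 of the 10 arrays, and was kept with the labels exchanged. With the replicate block on the 10 arrays the call was lost as well (limma adjusted p 0.759). In roots the estradiol arrays were higher in 3 of 3 arrays, and in shoots the groups overlapped.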

How the results depend on the processing

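With 2 or 3 arrays a group, leaving out 1 array leaves some groups with 1 array, which is assumed to vary like the others. For the organ difference of the estradiol effect, the limma count of features past the threshold was 1 under exchanged labels with and without the replicate block, under 3 filters, an intensity trend, array weights, quantile normalization and centring. It was 0 on the 12 arrays as labelled (799 features at an unadjusted p under 0.05) and 0 with the replicate block (1902 features). Among features with 1 gene, a set that leaves out the unnamed feature that passed, it was 0 (810 features). It was 2 with exchanged labels and a highest group mean of 5 or more. Over the omissions of 1 array it ran from 0 to 29. Without root estradiol replicate 3 on the 10 arrays it was 23, in 2 distinct profiles. Without shoot DMSO replicate 1 under exchanged labels it was 29, in 4 distinct profiles, with no named gene in either. The count for other omissions on the 10 arrays, not under exchanged labels, follows. It was 0 without root estradiol replicates 1 and 2, root DMSO replicates 1 and 2, shoot estradiol replicate 2, and shoot DMSO replicates 1 and 3, with 1538 to 2419 features at an unadjusted p under 0.05. Without shoot DMSO replicate 2 the 1 feature past it was 13482439.

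The organ difference of the unnamed feature past the threshold was -4.90 (adjusted p 0.719) on the 12 arrays as labelled and ran from -5.62 to -4.58 over the omissions. With the replicate block on the 10 arrays it was -5.14 (adjusted p 0.759), and with block and exchanged labels -4.90 (adjusted p 0.0411). Under exchanged labels, deviations from group means correlated at -0.02 to 0.13 between same-numbered arrays of different groups. Other pairs had -0.13 to 0.06. These ranges overlapped, but 11 of 12 arrays correlated best with their own number. The main fit takes the arrays as unpaired, and on the 10 arrays the call depends on this choice.

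Opposite responses numbered 64 at a size of 0.3, 19 at 0.5, 16 under exchanged labels and 50 to 100 over the omissions. One-organ responses numbered 310 at a size of 0.6, 54 at 1.0, 70 under exchanged labels and 142 to 389 over the omissions. Fewer arrays overlap less often by construction.

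Of 99 results, 13 gene differences changed sign in some alternative, none of them past the threshold. With the replicate block LCR69 had -0.056, PIF7 0.11 and HON4 -0.019. With all 12 arrays, in either labelling, EXLA2 had -0.053, GLR2.2 -0.40, GLR3.3 0.0053 and HON4 -0.011. Over the omissions the ranges were -0.42 to 0.85 for EXLA2, -0.76 to 0.68 for GLR2.2, -0.22 to 0.11 for GLR3.3, -0.11 to 0.22 for HON4, -0.38 to 0.14 for PIF7, -0.071 to 1.48 for AT5G64120, -0.080 to 1.12 for BGLU21, -0.0061 to 0.63 for CYP71B23, -0.050 to 0.52 for IDL3, -0.75 to 0.13 for JAL22, -0.53 to 0.13 for LHCB4.2 and -0.31 to 0.13 for NAI2.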
